A study of Gallus gallus with 5 samples.

Results

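The RNA described here came from DT40 cells that received no doxycycline. DT40 is a chicken B cell lymphoma line, and the cells used were CAP-H knockout cells, in which CAP-H, a subunit of the chromosome-compacting complex condensin I, can be switched off. The 3 libraries were chosen by their titles, which read CAP-H without doxycycline, replicates 1, 2 and 3, out of 5 libraries in the series. Per the labels their genotype is CAP-H on, and the 2 remaining libraries, from cells given doxycycline at 100 ng/ml for 36 h, were not used. The 3 libraries used are listed with the same time of 36 h, without doxycycline. All 5 libraries share the knockout background, so these levels are those of the engineered line and not of its unmodified parent. Nothing in the labels tells if the 3 replicates were grown as separate cultures, so their spread may be technical. The gene of CAP-H, NCAPH, matched 0 rows by accession, so its level was not read.

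DT40 was derived from a tumour of the bursa of Fabricius, the organ in which birds form their B cells, induced by avian leukosis virus. Chicken B cells diversify their immunoglobulin genes after assembly mainly by gene conversion, in which homologous recombination copies stretches of pseudogenes into the expressed gene. DT40 cells keep this process in culture, divide fast and integrate targeting constructs at their homologous loci efficiently, which is why the line is widely used in vertebrate genetics.

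The files gave counts for 16143 distinct transcript intervals, referred to as features below. Library totals over these features were 21228020, 14042444 and 11612916 counts in replicates 1, 2 and 3. Levels are CPM, counts scaled to a library total of 1000000, and are not adjusted for transcript length, so long transcripts gather more counts than short ones at equal molecule numbers. A CPM value is therefore used to describe a gene across the libraries, and levels of different genes are set side by side as CPM per kilobase of genomic span, introns included. A feature was taken as expressed at 1 CPM or more in each of the 3 libraries. The span measure depends on intron length and does not correct for transcript length. Expressed features with spans of 3 to 10 kb had a median of 36.1 CPM and those over 300 kb 63.0 CPM. Per kilobase of span these medians were 5.92 and 0.113 CPM, so features with long introns rank low on this scale. A count of 1 is the smallest value in the files and marks an empty feature. The limit of 3 counts corresponds to 0.141, 0.214 and 0.258 CPM in replicates 1, 2 and 3, which covers counting error only.

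Of the 16143 features, 9360 (58.0%) were expressed and 3232 (20.02%) were empty in all 3 libraries. The remaining 3551 lay between these limits. Expressed features held 99.8% of the counts in each library, and their median level was 44.3 CPM, with quartiles of 14.3 and 105 CPM. Features that matched a gene symbol were expressed in 63.6% of cases and those without one in 51.5%. Curated messenger RNA records were expressed in 68.5% of 4669 features, predicted messenger RNAs in 55.2% of 10615 and predicted non-coding RNAs in 47.2% of 388.

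Counts were spread over many features rather than held by a handful. The most abundant feature took 1.24% ± 0.03 of the counts (SD, n = 3), the 10 most abundant 6.52% ± 0.09 and the 100 most abundant 19.5% ± 0.32. Ranked by mean CPM, 24 features held 10% of the counts, 766 held 50% and 4297 held 90%. The 89 features at 1000 CPM or more accounted for 18.4% of the counts, whereas the 2383 between 100 and 1000 CPM accounted for 58.4%. The 2169 features between 1 and 10 CPM together held 0.89%.

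**Figure D1:**
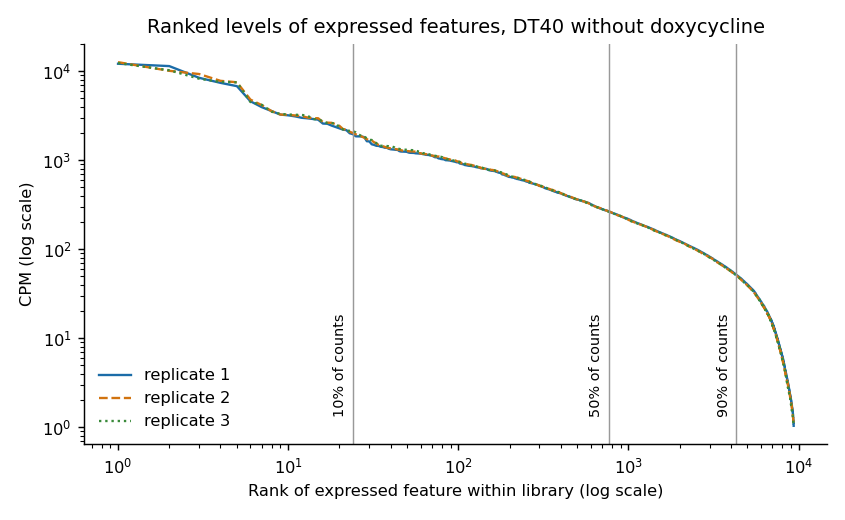
CPM (log scale) of each expressed feature against its rank within each of the 3 libraries (log scale), with vertical lines at the ranks where 10%, 50% and 90% of the counts are reached (24, 766 and 4297 features). The 3 curves lie on each other over nearly the whole range.

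The feature with the most counts was NM_204157.2 (galGal4 chromosome 3, 80912268 to 80916911), which the reference table does not pair with a symbol and which lies between SLC17A5 and MTO1. Its level was 12114, 12622 and 12336 CPM in replicates 1, 2 and 3. It ranked first in mean CPM and was the fourth highest feature per kilobase of span, at 2661 CPM per kilobase. Of the 10 features with the most counts, 6 had no symbol.

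A predicted non-coding RNA, XR_139986.1 (chromosome 1, 32562876 to 32576171), came next with 11406, 10090 and 10240 CPM. A shorter predicted non-coding RNA, XR_139985.1, lies inside it with 8414, 7501 and 7571 CPM, so counts within the overlap cannot be assigned to either. The nearest neighbours of this locus with a symbol, SLC16A7 and FAM19A2, lie 484 and 110 kb away. Features without a symbol were not searched as neighbours. Replicate 1 was the highest of the 3 libraries for both RNAs.

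XM_415869.3 (chromosome 19, 7056204 to 7080766), between OPNP and RAD51C, had 6783, 9283 and 7487 CPM. It was the least reproducible of the 10 most abundant features, with replicate 2 at 1.37 times replicate 1. XM_420514.3 (chromosome 4, 39268085 to 39277045) had 7393, 7790 and 8224 CPM, and XM_001236315.2 on chromosome 18 had 3565, 3554 and 3504 CPM.

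Among features with a symbol, the most counts fell on HSPA8, the constitutive cytosolic Hsp70 chaperone, with 4591, 4793 and 4504 CPM. ENO1, the glycolytic enolase, had 3941, 4154 and 4183 CPM. HSP90AA1, a cytosolic Hsp90 chaperone, had 3253, 3224 and 3311 CPM. All 3 genes varied by less than 1.07-fold between libraries, and per kilobase of span they had 936, 330 and 742 CPM.

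EIF4G2, a translation initiation factor, had 3224 ± 32.2 CPM (SD, n = 3), and RPSAP58, listed with the synonym RPSA of the ribosomal protein SA, with 3173 ± 66.2 CPM. GAPDH, a glycolytic dehydrogenase, had 3127 ± 132 CPM and RPL4, of the large ribosomal subunit, 2988 ± 153 CPM. EEF2, the elongation factor that moves the ribosome along the messenger, had 2906 ± 54.4 CPM. It lies inside the span of the transcription factor gene ZBTB7A at 2956 ± 53.9 CPM, so counts within the overlap cannot be assigned to either. Replicates 1, 2 and 3 had 61612, 41589 and 33133 counts for EEF2 and 62699, 42289 and 33722 for ZBTB7A. If reads in the overlap count for both, few ZBTB7A counts lie outside EEF2. The same holds for PKLR, a pyruvate kinase gene, at 2597 ± 31.8 CPM within XM_001232752.2 at 2610 ± 30.8 CPM. NPM1 and NCL, the nucleolar proteins nucleophosmin and nucleolin, had 2348 ± 77.4 and 1968 ± 107 CPM, and NCL overlaps another feature.

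**Figure D2:**
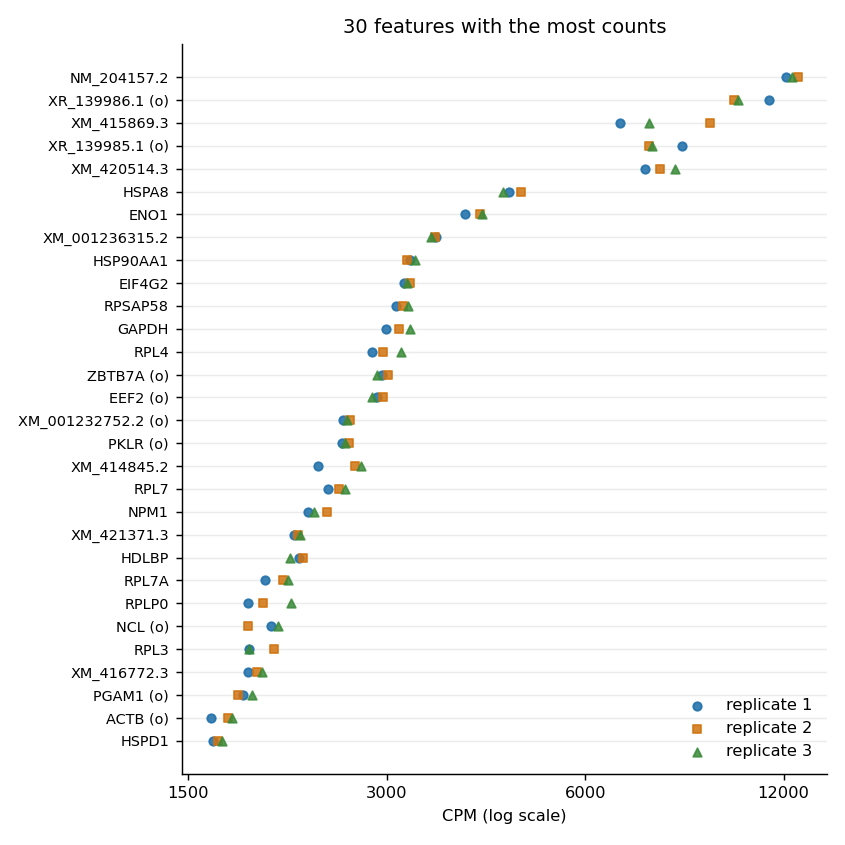
CPM (log scale) of the 30 features with the highest mean CPM, 1 row each and 1 symbol per library, with "(o)" marking features that overlap another one. Points of a row mostly lie close together, and XM_415869.3, from 6783 to 9283 CPM, is spread the most.

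The ranking changed when levels were divided by genomic span. Of the 40 expressed features with the highest CPM per kilobase of span, 25 lay in one histone gene stretch on chromosome 1 (47924628 to 48033079), where 37 of 41 features were expressed. HIST1H2B7, a histone H2B gene with a span of 0.381 kb, led them with 3547 CPM per kilobase of span, and its level was 1305, 1330 and 1419 CPM in replicates 1, 2 and 3. HIST1H46, of histone H4, had 2493 and HIST1H2A4, of histone H2A, 2379 CPM per kilobase of span. Histone genes are near-identical copies, and how reads that match several of them were placed is not given in the sources used here, so single histone levels are uncertain. Outside the histone stretch, HSPA8 had 936, RPLP0 833 and GAPDH 803 CPM per kilobase of span. A further 4 of the 40 were small RNA features inside other features, MIR1454, MIR3533, SNORD20 and SNORD37, whose counts cannot be separated from those of the features around them.

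All 42 cytosolic ribosomal proteins with a symbol were expressed, at a median of 1030 CPM and 302 CPM per kilobase of span, beside 5.76 CPM and 0.635 CPM per kilobase over all features. Together they held 4.47% ± 0.17 of the counts (SD, n = 3). Their summed level was 42713, 45334 and 46006 CPM in replicates 1, 2 and 3, and 32 of the 42 were lowest in replicate 1, against 25.9% of all expressed features. Histones had the same order, with 15 of 20 lowest in replicate 1 and sums of 10577, 10963 and 11622 CPM. This was not particular to these 2 lists. Of expressed nuclear-encoded oxidative phosphorylation genes 27 of 43 were lowest in replicate 1, and of proteasome genes 19 of 27. Among chromatin modifiers 10 of 43 were, and among splicing and RNA-binding genes 13 of 51, near the share of all expressed features. Replicate 1 is also the deepest library, and whether depth plays a part was not tested.

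The rest of the protein synthesis apparatus was also expressed nearly throughout. As background to all gene lists, 58.0% of all features were expressed and 63.6% of those with a symbol. Of 39 translation factors, 38 were expressed, at a median of 431 CPM and 44.5 CPM per kilobase of span, and the exception was EEF1A2, an elongation factor form known from mammalian muscle and neurons, with 4, 1 and 1 counts. All 15 aminoacyl-tRNA synthetases, which load amino acids onto transfer RNAs, were expressed at a median of 255 CPM and 15.9 CPM per kilobase of span, EPRS among them with 794, 816 and 819 CPM. All 28 nucleolar and ribosome assembly genes were expressed at a median of 183 CPM and 23.9 CPM per kilobase of span. DKC1, the pseudouridine synthase dyskerin, had 1195, 1173 and 1196 CPM.

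Protein folding and breakdown genes were expressed in full or nearly so. Of 28 cytosolic and mitochondrial chaperones, 27 were expressed, with a median of 360 CPM and 27.6 CPM per kilobase of span, and HSPB1, a small heat shock protein, was empty in all 3 libraries. HSPD1, the mitochondrial chaperonin, had 1633, 1664 and 1688 CPM, and PPIA, the prolyl isomerase cyclophilin A, had 876, 887 and 885 CPM. All 21 endoplasmic reticulum chaperone and stress genes and all 27 proteasome genes were expressed, at medians of 202 and 236 CPM, or 10.3 and 24.1 CPM per kilobase of span.

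The 16 glycolysis genes had a list median of 785 CPM. Of them, 14 (87.5%) were expressed, beside 58.0% of all features and 63.6% of those with a symbol. Of those that were not, HKDC1, a hexokinase-like gene, had 2, 2 and 1 counts. LDHB and LDHA, the heart-type and muscle-type lactate dehydrogenase chains, were both present, with 1164, 1158 and 1195 CPM and 852, 874 and 873 CPM. Per kilobase of span the median was 78.6 CPM for glycolysis, 20.2 for the tricarboxylic acid cycle and 25.9 for nuclear-encoded oxidative phosphorylation. Of 44 genes in the last list, 43 were expressed, and ATP5B, the catalytic beta chain of ATP synthase, was empty, on a contig with no counts that is described below. No mitochondrially encoded gene was among the features.

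Of 22 sterol and fatty acid synthesis genes, 20 (90.9%) were expressed, beside 58.0% of all features and 63.6% of those with a symbol. The list median was 117 CPM and 15.1 CPM per kilobase of span. FASN, fatty acid synthase, had 985, 966 and 972 CPM. HMGCS1, of the sterol pathway, had 425, 435 and 427 CPM. FADS1 and FADS2, the desaturases of polyunsaturated fatty acid synthesis, were the exceptions, with 18, 12 and 6 counts for FADS1 and FADS2 empty in all 3 libraries.

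Of 19 integrated stress response genes, 15 (78.9%) were expressed, beside 58.0% of all features and 63.6% of those with a symbol. The list median was 81.8 CPM and 4.84 CPM per kilobase of span. SLC7A5, a transporter of large neutral amino acids, had 1205, 1146 and 1155 CPM, ASNS, asparagine synthetase, 1022, 1008 and 1092 CPM, and ATF4, the transcription factor of this response, 551, 580 and 565 CPM. PHGDH, which starts serine synthesis from glycolysis, had only 8, 3 and 1 counts, whereas PSPH, which ends that pathway, had 112, 111 and 118 CPM and overlaps another feature.

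Of 26 antioxidant genes, 18 (69.2%) were expressed, beside 58.0% of all features and 63.6% of those with a symbol. FTH1, the ferritin heavy chain, had 415, 461 and 469 CPM, and the thioredoxin gene TXN 331, 344 and 355 CPM. CAT, the gene of catalase, was empty in all 3 libraries, as were GPX8 and MGST1.

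**Figure D3:**
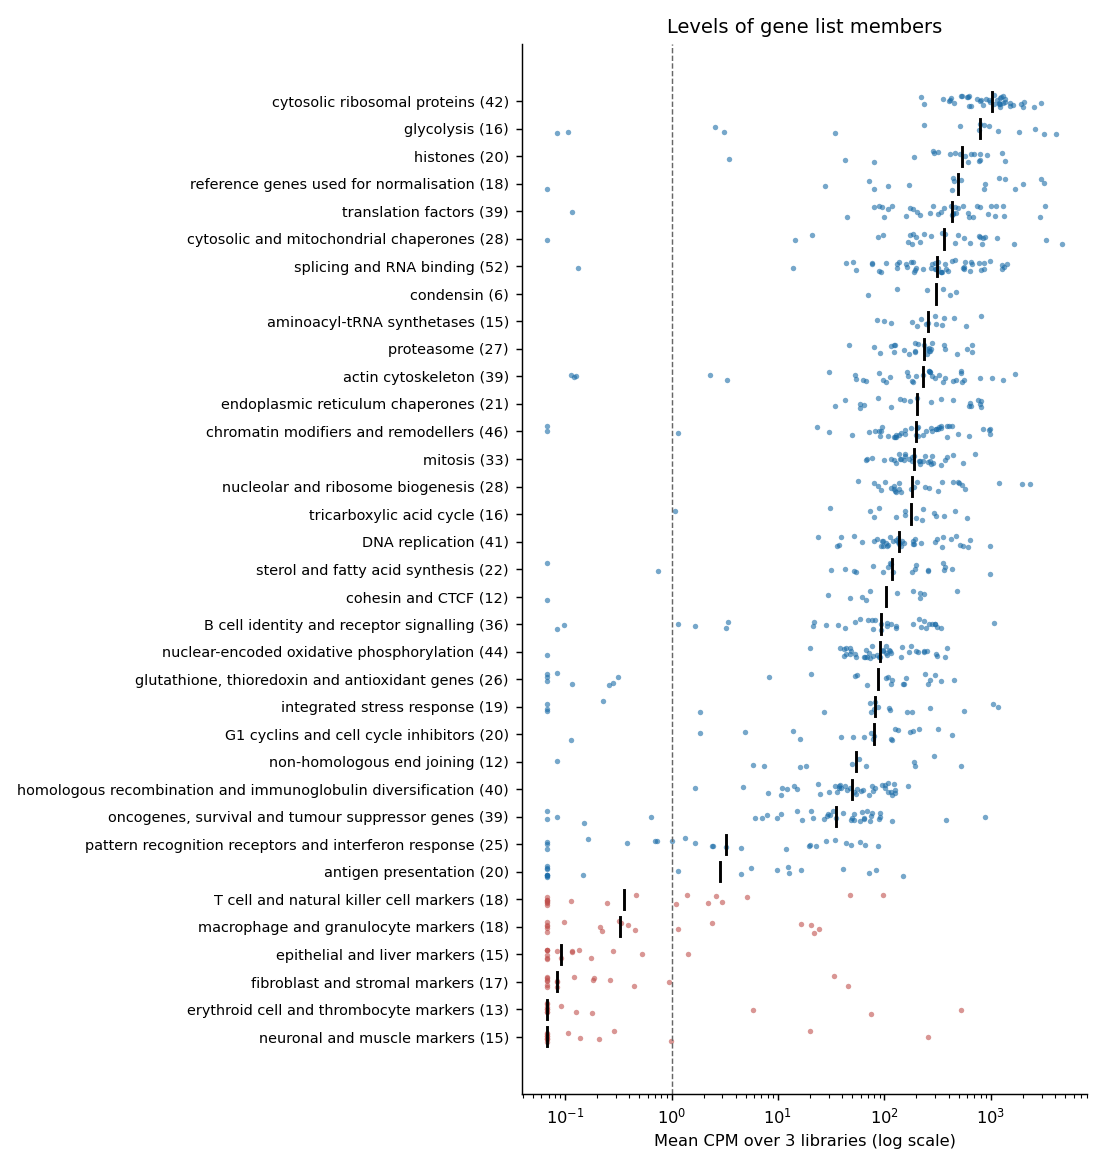
Mean CPM over the 3 libraries (log scale) of each member of the 35 gene lists with members, with the number of members in brackets, a black bar at the list median and a dashed line at 1 CPM. Points at the left edge are features at the smallest value in the files, and the 6 lists in red, markers of other cell types, have medians below 1 CPM while the others lie above it.

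Genes of the dividing cell cycle were expressed almost throughout. All 41 DNA replication genes were expressed, at a median of 138 CPM and 11.2 CPM per kilobase of span, including the helicase subunit MCM2 at 622, 677 and 623 CPM and the sliding clamp PCNA at 512, 552 and 566 CPM. TOP2A, the topoisomerase that untangles sister DNA, had 945, 1026 and 951 CPM and overlaps another feature. All 33 mitosis genes were expressed, at a median of 190 CPM and 19.8 CPM per kilobase of span, including the microtubule regulators CKAP5 (720, 706 and 719 CPM) and TPX2 (556, 548 and 530 CPM).

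Of 20 G1 regulators, 19 were expressed. The D-type cyclins, which drive entry into the cycle, were all present, with CCND1 at 183, 169 and 169 CPM, CCND2, which overlaps another feature, at 140, 120 and 116 CPM and CCND3 at 77.6, 83.5 and 72.9 CPM. Their kinase partner CDK6 had 348, 318 and 296 CPM. CDKN1A, the p21 inhibitor that p53 induces, had 2, 1 and 2 counts, at or under the limit of 3 counts. CDKN2A had 115, 114 and 125 CPM and the inhibitor CDKN2C 116, 103 and 124 CPM.

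All 6 condensin subunits with a symbol were expressed. SMC2 and SMC4, the ATPases that both condensins share, had 474, 473 and 465 CPM and 266, 246 and 245 CPM, and SMC4 overlaps another feature. NCAPD2, of condensin I, had 399, 429 and 409 CPM. Of condensin II, NCAPD3 had 358, 344 and 357 CPM, NCAPG2 130, 132 and 132 CPM and NCAPH2 73.9, 70.6 and 68.0 CPM. The 3 libraries lay close together for every subunit.

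The cohesin list, whose complex holds sister chromatids and forms chromatin loops, had 11 of 12 members expressed. RAD21, its kleisin subunit, had 476, 492 and 484 CPM, and CTCF, which positions loops, had 219, 212 and 222 CPM. The meiotic subunit SMC1B was empty in all 3 libraries.

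All 40 genes of homologous recombination and immunoglobulin diversification were expressed, at a median of 49.8 CPM and 2.73 CPM per kilobase of span. DNA2, a nuclease that resects broken ends, had 171, 166 and 165 CPM and BRCA1, a tumour suppressor that promotes recombination, had 135, 125 and 119 CPM. The recombination factors RAD51C and XRCC3 had 73.9, 69.2 and 70.3 CPM and 39.3, 38.9 and 36.5 CPM, and RAD51D, which overlaps another feature, 8.95, 8.69 and 6.54 CPM.

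UNG, the glycosylase that removes uracil from DNA, had 93.5, 107 and 104 CPM. The translesion polymerases POLH and REV1 had 59.9, 62.0 and 66.0 CPM and 65.3, 59.2 and 57.3 CPM.

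Of 12 genes of end joining and V(D)J recombination, 11 (91.7%) were expressed, beside 58.0% of all features and 63.6% of those with a symbol. PARP1, a sensor of DNA breaks, had 533, 526 and 528 CPM, and the Ku subunits XRCC5 and XRCC6 had 67.2, 66.7 and 65.7 CPM and 51.5, 51.1 and 47.3 CPM. RAG1, a subunit of the recombinase that assembles antigen receptor genes, had 2, 1 and 1 counts. PRKDC, the catalytic subunit of the DNA-dependent kinase, had 203, 189 and 193 CPM.

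The B cell label was checked against 36 genes of B cell identity and signalling, with a median of 92.4 CPM. Of these, 33 (91.7%) were expressed, beside 58.0% of all features and 63.6% of those with a symbol. JCHAIN, the joining chain of polymeric immunoglobulin, had 1079, 1076 and 1085 CPM, and with 187 CPM per kilobase of span it was the highest of the list on that scale. LOC396098, listed with the synonym of the chicken B cell antigen Bu-1, had 288, 314 and 299 CPM. CD79B, a signalling chain of the B cell receptor, had 206, 213 and 221 CPM. Defining genes of B cells were thus present in each library, as the label states.

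Most transcription factors of B cells were expressed. EBF1 had 150, 125 and 110 CPM, PAX5 88.2, 71.3 and 69.8 CPM, IKZF1 233, 216 and 212 CPM and POU2AF1 255, 279 and 255 CPM. EBF1 and PAX5, with spans of 260 and 107 kb, were both highest in replicate 1. EBF1 had the fourth largest ratio between libraries, 1.37, of the 2472 features at 100 CPM or more. Other long features among the most variable ones at that level were highest in replicate 1 too. JARID2 (205 kb), which overlaps another feature, had 131, 107 and 102 CPM, and LRP8 (146 kb) 130, 101 and 107 CPM. As background, replicate 1 was the highest library for 3961 of the 9360 expressed features, replicate 2 for 2554 and replicate 3 for 2845. Whether span plays a part was not tested. XBP1, a factor of secretory cells, had 322, 355 and 346 CPM, while PRDM1, the regulator of plasma cell differentiation, had 1, 1 and 2 counts.

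Downstream of the receptor, the kinases LYN, SYK and BTK had 307, 293 and 296 CPM, 110, 117 and 117 CPM, and 279, 292 and 277 CPM. SWAP70, a signalling protein of activated B cells, had 318, 305 and 315 CPM. Among receptors of this list, CD40, which receives T cell help, had 23.4, 19.7 and 22.8 CPM. TNFRSF13B and TNFRSF13C, receptors of the survival factor BAFF, had 35.05, 36.46 and 38.49 CPM and 2.40, 3.56 and 4.22 CPM. CXCR4, a chemokine receptor, had 57.8, 59.5 and 59.8 CPM and CCR7, another, 2.97, 4.56 and 2.33 CPM. CD38 and CIITA, the class II transactivator, were the other two that were not expressed, and CIITA lay at the limit with 21, 12 and 19 counts.

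Antigen presentation genes were expressed in 10 of 20 cases (50%), beside 58.0% of all features and 63.6% of those with a symbol. CD74, the invariant chain of class II molecules, had 73.9, 69.9 and 72.2 CPM and LGMN, a lysosomal protease, 142, 147 and 160 CPM. In contrast B2M, the light chain of class I molecules, on chromosome 10, was empty in all 3 libraries. The major histocompatibility genes BF1, BF2, BLB1, DMB2, TAP1 and TAPBP were empty as well. They lie in 1 stretch of chromosome 16 (59628 to 103559), chosen for mention from its values, in which 6 of 9 features were empty and DMA, with 5.23, 5.06 and 6.46 CPM, and NM_001030674.1 were expressed. These genes vary strongly between chicken haplotypes and have related copies, and whether read placement plays a part was not tested.

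MYC, the transcription factor gene next to which avian leukosis virus commonly inserts in bursal lymphomas, had 904, 838 and 876 CPM, from 19180, 11766 and 10167 counts. It ranked 119 of all features in mean CPM and stood at 390 CPM per kilobase of span. Of the 39 oncogenes, survival genes and tumour suppressors, 34 (87.2%) were expressed, beside 58.0% of all features and 63.6% of those with a symbol. The list median was 34.8 CPM and 2.56 CPM per kilobase of span. TERT, the catalytic subunit of telomerase, had 23.9, 29.3 and 27.6 CPM. Of the apoptosis inhibitors, BCL2L1 had 90.6, 89.3 and 93.3 CPM and BCL2 33.82, 29.98 and 25.66 CPM. The death receptor gene FAS and the proto-oncogene SRC were empty in all 3 libraries.

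Pattern recognition and interferon genes were expressed in 15 of 25 cases (60%), near the 58.0% of all features and 63.6% of those with a symbol. Their median was 3.25 CPM, beside 5.76 CPM over all features. MYD88, the adaptor of Toll-like receptors, had 47.1, 49.2 and 49.3 CPM. The interferon-induced genes MX1, IFI6 and IFIH1 were empty in all 3 libraries.

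Markers of other cell types were mostly at or near the empty value. Expressed were 7 of 18 T cell and natural killer cell markers, 5 of 18 macrophage and granulocyte markers, 3 of 13 erythroid and thrombocyte markers, 2 of 17 fibroblast markers, 1 of 15 epithelial and liver markers and 2 of 15 neuronal and muscle markers. Of the epithelial and liver markers, KRT5 and KRT6A lie on a contig without counts, described below, which leaves 13 that could be read. Over all features 58.0% were expressed. The defining erythroid genes HBA1, HBBA, HBBR, HBE, HBE1 and HBZ, all globins, had at most 8 counts in any library, and the macrophage markers C1QA, C1QC, CD14 and MARCO, the T cell genes CD4, CTLA4, GATA3 and ICOS and the epithelial genes EPCAM and KRT14 were empty in all 3. Among the expressed T cell markers, CD247, CD8A, LEF1, CD8BP and TCF7 had means of 5.1, 3.0, 2.6, 2.2 and 1.4 CPM. The remaining expressed ones, CD3D and CD5, are given below. In RNA from whole cultures, fewer cells of a type and less RNA per cell cannot be told apart.

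A few single markers stood out from their lists. CD3D, a chain of the T cell receptor complex, had 90.5, 98.1 and 100 CPM, or 38.9 CPM per kilobase of span, while its partner chain CD3E had 6, 4 and 2 counts. The summed level of the T cell list was 157 to 164 CPM, so CD3D carried most of it, and CD5, which overlaps another feature, had 47.4, 44.5 and 49.7 CPM. STMN2, a microtubule regulator known from neurons, had 251, 256 and 265 CPM, although the neuronal and muscle genes NEFL, NEFM, SYT1 and MYOD1 were empty. CDH11 and COL1A2, a cadherin and a collagen of mesenchymal cells, had 47.8, 43.3 and 46.7 CPM and 32.6, 36.7 and 31.5 CPM, beside empty DCN, COL6A1 and THY1. TFRC, the transferrin receptor, had 524, 533 and 525 CPM, and it is used by dividing cells of many types.

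Macrophage and granulocyte markers summed to 88.9 ± 3.66 CPM (SD, n = 3). MPEG1, a pore-forming protein of phagocytes, had 26.9, 21.3 and 24.4 CPM, MMP9, a matrix protease, 19.8, 24.9 and 21.1 CPM and CYBB, of the phagocyte oxidase, 19.8, 18.9 and 22.7 CPM. LYZ, lysozyme, had 33, 7 and 16 counts. The erythroid and thrombocyte list summed to 600 to 614 CPM, most of it from TFRC, the neuronal and muscle list to 274 to 285 CPM, most of it from STMN2, the fibroblast list to 80.4 to 83.7 CPM and the epithelial and liver list to 3.28 to 3.44 CPM. Whether other cells take part in any level given here was not tested.

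Whole families of tissue-restricted genes lacked expression. Of 130 families of symbols that share a stem, with at least 8 members each, all members of 24 were expressed and none of 4 families. Those 4 were the AvBD genes of avian beta-defensins (11 members), the claudins (8), the HOX genes of body axis patterning (17) and the keratins named KRT (14). Of the KRT genes, 7 lie on the contig E22C19W28_E50C23, on which no feature has counts, so the statement rests on the other 7. Among 13 SOX genes, SOX4 alone was expressed, and among 10 CHRNA genes, CHRNA5 alone, at 131 CPM.

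Empty features also lay side by side. On chromosomes, 12 runs of at least 8 consecutive features were empty in all 3 libraries. The run with the most features was on chromosome 25 (727118 to 1134155), with 59 features over 407 kb, among them CRNN, S100A6 and the feather keratin gene F-KER. Chromosome 27 had a run of 30 features (206003 to 778133), the longest in bases with 572 kb, and one of 20 (798156 to 1068317). Others held parts of the HOXA, HOXB and HOXD clusters and the defensin genes AvBD6 to AvBD11 on chromosome 3.

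All 84 features on the contigs E22C19W28_E50C23 and E64 had a count of 1 in all 3 libraries. They include ATP5B, SMARCD1 and HDAC7, whose products act in respiration and chromatin control, as well as keratins such as KRT5. With both contigs left out, 58.3% of features were expressed. Every feature of a contig being empty is a property of these files, and its cause was not tested, so the 84 genes give no level here.

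The share of expressed features differed between chromosome classes. On the macrochromosomes 1 to 5, 55.4% of 7295 features were expressed, on chromosomes 6 to 10, 58.1% of 2634, and on the microchromosomes 11 to 28, 62.8% of 5310. Microchromosomes held 32.9% of the features and 35.9% of the counts. Their expressed features had shorter spans, with a median of 9.29 kb against 17.4 kb on macrochromosomes, and a higher median level per kilobase of span, 4.39 against 2.43 CPM, whereas their median CPM without regard to span was 44.9 against 46.4.

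Chromosome 14 had the highest share of expressed features of the autosomes, 72.2%, and chromosomes 27 and 16 the lowest, 47.0% and 47.9%. On the Z chromosome 55.1% of 813 features were expressed, and it held 5.04% of the features and 2.90% of the counts. The median level of expressed features there was 29.1 CPM, beside 44.3 CPM over all expressed features. Of 7 features on the W chromosome, which only female birds carry, 6 were expressed.

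**Figure D4:**
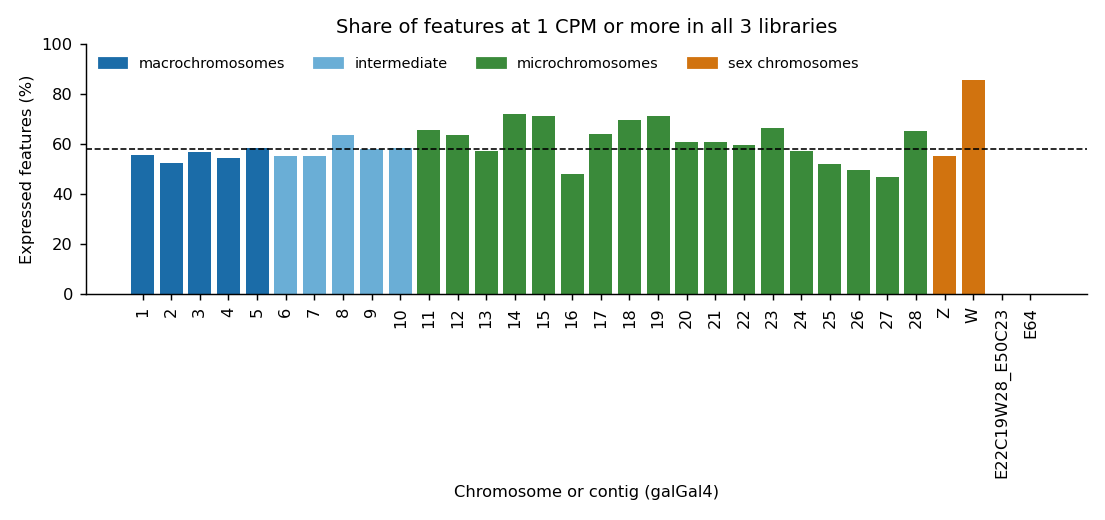
Percentage of features expressed (1 CPM or more in all 3 libraries) on each galGal4 chromosome and on the 2 contigs, with a dashed line at the share over all features, 58.0%. The bars of chromosomes 14, 15, 18 and 19 are the tallest of the autosomes, the contigs have no bar, and W rests on 7 features.

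Span went with expression in part. Of features under 1 kb, 26.0% were expressed, of those from 10 to 30 kb 67.3%, and of those over 300 kb 41.9%. Short features include most of the 471 curated non-coding RNAs, whose expressed members had a median span of 0.089 kb. Of 436 features with a microRNA symbol, 106 were expressed, but 241 overlap another feature and only 16 of those that do not were expressed. MIR221 was one of these with 6.92, 9.40 and 6.63 CPM, and MIR222, its neighbour on chromosome 1 with which it forms a pair, had 3.49, 4.06 and 6.37 CPM.

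Neighbouring features sometimes had equal counts. Of 4659 pairs of neighbours that do not overlap and hold at least 50 counts in each library, 15 had counts within 2% of each other in all 3 libraries and 4 had identical counts. MIR30E and MIR30C1 on chromosome 23 had 123, 96 and 67 counts each. VPS37D and XM_003642372.1 on chromosome 19 had 682, 429 and 418 counts each. Below that limit, MIR375 and MIR1788, which lie apart on chromosome 7, had 48, 40 and 26 counts each. The cause was not tested, and the levels of such pairs are not independent.

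The 3 libraries were close to each other. Over the 9360 expressed features, the median SD of log2 CPM was 0.08 and the median coefficient of variation 5.83%, which narrowed to 3.41% among the 2472 features with a mean of 100 CPM or more. The biological coefficient of variation that edgeR estimated from the counts was 5.02% in common, 11.9% at 1 to 10 CPM and 4.06% at 100 to 1000 CPM. Across these features, log2 CPM of 2 libraries correlated at 0.995 to 0.996 (Pearson, 9360 features, with gene level shared by both axes, as a description only). Between 60.4% and 65.1% of features lay within 10% of each other in a pair of libraries.

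The spread came nearest to counting error in the lowest features. Between 1 and 3 CPM the median SD of log2 CPM was 0.27, and the SD that counting error alone gives was 0.27. The median SD of 3 values lies below the SD it estimates by construction. Equal values therefore do not show that the spread is as small as counting error. At 1000 CPM and more the median SD was 0.05, where counting error gives 0.01. Features from 300 to 1000 CPM had the smallest median SD, 0.04.

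**Figure D5:**
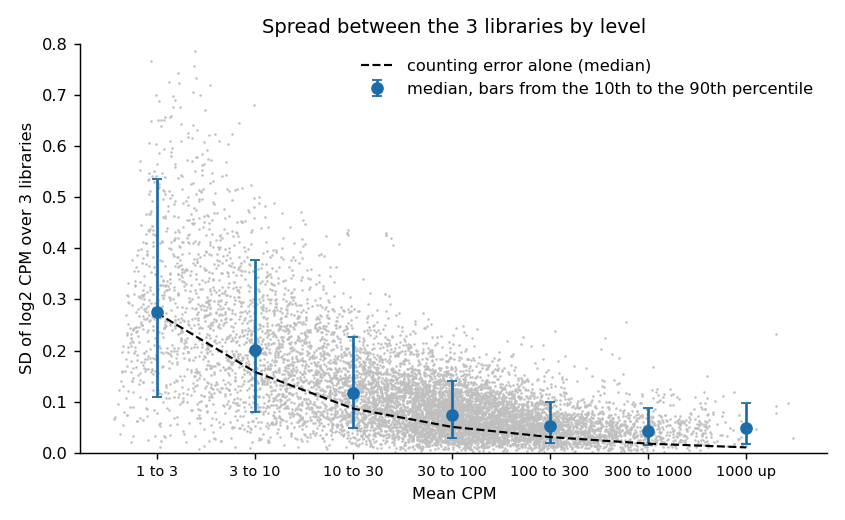
SD of log2 CPM over the 3 libraries against mean CPM for the expressed features (grey points), with the median and the 10th to 90th percentile in each range of CPM (blue). The dashed line is the median over features of the SD that counting error alone gives, not lowered for 3 values. The median SD falls from 0.27 at 1 to 3 CPM to 0.04 at 300 to 1000 CPM, and stays above the dashed line from 3 CPM upward.

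No feature with a mean of 100 CPM or more differed by 1.5-fold or more between its highest and lowest library, and 60 of 2472 differed by 1.2-fold or more. The largest ratio, 1.40, was that of RPLP1, an acidic protein of the ribosomal stalk, with 363, 507 and 386 CPM. PDCD6IP, a membrane remodelling protein, had 305, 351 and 265 CPM. In both of these genes replicate 2 was the highest.

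Of the 8214 features at a mean of 5 CPM or more, 142 differed by 1.5-fold or more and 2 by 2-fold or more. Those 2 were GALNTL6, a glycosyltransferase-like gene, with 5.56, 7.62 and 3.01 CPM, and CIB2, a calcium-binding protein gene, with 4.76, 7.26 and 3.53 CPM. Both lie near the lower limit of this set and rest on 35 to 118 counts per library.

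The steadiest features at 50 CPM or more had almost the same level in each library. HNRNPA3, an RNA-binding protein, had 663.2, 662.6 and 663.1 CPM, and RAB2A, a small GTPase of membrane traffic, 106.2, 106.3 and 106.3 CPM. TPI1, the triosephosphate isomerase of glycolysis, had 514.6, 514.0 and 513.5 CPM. They were picked as the most even of many features in these 3 libraries and are not shown to be the most constant in other DT40 cultures. Of 18 genes commonly used for normalisation, 17 were expressed, and the list median was 490 CPM. The median SD of log2 CPM of these 17 was 0.056, beside 0.043 over all expressed features from 300 to 1000 CPM. Of the 17, 12 were lowest in replicate 1, against 25.9% of all expressed features, and GAPDH ranged from 2994 to 3259 CPM.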

How the data were processed

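RNA-seq counts of the 3 libraries without doxycycline were used, grouped by sample titles. The authors deposited whole-number counts per RefSeq transcript with intervals on galGal4, per the file headers, in 17036 rows per library. Column names stand off their columns, so contents were read from the values. Per the submitters' processing notes, the tools included edgeR 3.2.3, FastQC, Bowtie and TopHat2 2.0.8b. Not given in the sources used here are the counter, the strand setting and the treatment of reads matching several places.

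Rows of equal interval (665 intervals with several identifiers) or equal identifier (7) held equal counts and were reduced to 16143 features, of which 2098 (13.0%) overlap another. Without strand, reads of overlapping or antisense genes cannot be told apart. Symbols came from the RefSeq table of GRCg7b by accession without version, for 8699 features (53.9%, holding 65.5% of the counts), and its coordinates were not used. CPM was computed per library total. TMM factors and dispersions came from edgeR 4.0.16 (intercept only) and size factors from DESeq2 1.42.0, in R 4.3.3, and the rest from Python 3.11.15 with pandas 2.3.3. The reduction of rows and the search for overlaps were tested on made-up rows, and the common dispersion estimate on simulated counts.

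No groups were compared and no test was made. Members and lists were chosen with earlier results of these data known. Named genes are the 30 features with a symbol and 10 without one of highest CPM, the highest per kilobase of span, up to 6 members of each list, all members of the condensin, recombination and B cell lists, expressed and empty markers of other cells, the 10 most variable features at 5 CPM or more and the 10 steadiest at 50 CPM or more. Genes named beyond these were chosen after their values were seen. Ranking per coding length was not made, because no transcript lengths were used here. Of 36 lists, 1 (mitochondrially encoded) had no member. Alternatives covered scaling, thresholds, repeated and overlapping rows, and each replicate left out. Some genes that the rule names are left out of the text.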

Additional observations from a re-analysis of the deposited data

How the results depend on the processing

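The number of expressed features ranged from 8065 (limit of 5 CPM) to 9928 (all deposited rows) over all alternatives, 1 of which, leaving out the 2 empty contigs, was added after the data were seen, and from 9413 to 9468 with a replicate left out. Per kilobase of span, 105 features held 50% of the summed level, against 766 of the counts. The share of the 10 most abundant features, 6.52%, became 6.15% with all deposited rows and 6.26% without overlapping features. The median SD of log2 CPM, 0.0844, became 0.0893 with DESeq2 size factors, 0.101 without a filter on low values and 0.0692 with a filter of 10 CPM. Without one replicate it ranged from 0.0662 to 0.0743, and an SD of 2 values has a lower median than one of 3 by construction. At a limit of 5 CPM, 2 T cell and natural killer cell markers counted as expressed in place of 7, and 0 epithelial and liver markers in place of 1. For the other 33 lists that count stayed within 1.5 times, and scaling and leaving out a replicate kept all 35 lists there. For the 298 named genes at 1 CPM or more, other scalings moved the mean level by ratios of up to 1.005 and leaving out a replicate by up to 1.28. The mean of 2 of 3 values always lies within 1 SD of the mean of 3, so the last says nothing of stability. No paired analysis was possible because these results come from 1 group and from no test. Depth limits levels below 1 CPM, where values rest on few counts.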
